A study of Mus musculus with 47 samples.

Results

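Mpo, Elane, Prtn3, Ctsg, Ms4a3 and Igsf6 were followed across sorted blood-forming cells of the adult mouse. The members were taken as the probe sets annotated to these single gene symbols. They are 6 of the 18194 genes named by 1 symbol on the array, each has 1 probe set, and all 6 passed the filter that left 13949 genes for testing. Affymetrix mouse arrays measured amplified RNA of 2000 sorted C57Bl6 adult bone marrow cells per sample, on 47 arrays of 17 populations. By their labels these were GM (2 arrays), GMP (3), ProB (2), ETP (3), CLP (2), LMPP (5), MkE (4), STHSC (2), LTHSC (2), PreCFUE (3), CFUE (3), ProE (3), MkP (3), PreB (4), IgM+SP (2), NKmature (2) and CD4 (2). The labels call the arrays of a population biological replicates, spell out none of these abbreviations, and give no sort markers, sex, exact age or number of animals. No population was treated and no allele other than the strain is named.

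Primary, or azurophil, granules are the storage organelles that neutrophil precursors build at the promyelocyte stage, before the later specific and gelatinase granules. Myeloperoxidase (Mpo) makes hypochlorous acid from hydrogen peroxide, and neutrophil elastase (Elane), proteinase 3 (Prtn3) and cathepsin G (Ctsg) are serine proteases that cathepsin C activates by removing a short propeptide. The genes are transcribed in immature cells, and the finished protein is kept in granules after the transcript is gone. Ms4a3 and Igsf6 encode membrane proteins rather than granule contents: Ms4a3 belongs to the MS4A family of membrane-spanning proteins and is used as a marker of granulocyte-monocyte progenitors, and Igsf6 belongs to the immunoglobulin superfamily.

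In RefSeq's GRCm38.p6 annotation Mpo lies on chromosome 11 (87793784 to 87804412), Ctsg on chromosome 14 (56099885 to 56102574), Ms4a3 on chromosome 19 (11629499 to 11640851) and Igsf6 on chromosome 7 (121064067 to 121074581). Prtn3 (chromosome 10, 79879667 to 79883174) and Elane (79886312 to 79888216) are neighbours, with 3137 bases between them. The 250 bases before the annotated start are shown for the 4 granule genes, because these genes move together in some populations and part in others. They are from RefSeq on GRCm38.p6, written 5′ to 3′ on the gene's own strand: Mpo is chr11:87793534-87793783 (plus strand), Elane is chr10:79886062-79886311 (plus), Prtn3 is chr10:79879417-79879666 (plus) and Ctsg is chr14:56102575-56102824 (minus). Capitals mark matches, on either strand, to 4 short words chosen after the sequences had been seen: AGGAAG (a core of ETS-factor sites), CAACNG (MYB), TGTGGT (RUNX) and TTGCNNAA (C/EBP).
Mpo: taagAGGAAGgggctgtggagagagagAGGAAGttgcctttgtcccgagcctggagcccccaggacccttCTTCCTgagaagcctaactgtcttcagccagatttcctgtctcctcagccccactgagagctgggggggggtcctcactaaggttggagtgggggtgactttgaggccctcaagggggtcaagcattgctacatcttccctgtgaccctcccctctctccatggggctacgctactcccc
Elane: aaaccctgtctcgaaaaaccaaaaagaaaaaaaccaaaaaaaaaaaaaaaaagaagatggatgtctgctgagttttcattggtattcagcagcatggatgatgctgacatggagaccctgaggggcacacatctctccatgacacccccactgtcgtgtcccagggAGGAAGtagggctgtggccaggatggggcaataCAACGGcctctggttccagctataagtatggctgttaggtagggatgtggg
Prtn3: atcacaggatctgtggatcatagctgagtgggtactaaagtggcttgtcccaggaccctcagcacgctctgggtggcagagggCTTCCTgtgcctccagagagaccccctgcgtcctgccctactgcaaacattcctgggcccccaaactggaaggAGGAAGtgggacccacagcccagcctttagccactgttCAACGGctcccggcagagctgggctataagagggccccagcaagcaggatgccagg
Ctsg: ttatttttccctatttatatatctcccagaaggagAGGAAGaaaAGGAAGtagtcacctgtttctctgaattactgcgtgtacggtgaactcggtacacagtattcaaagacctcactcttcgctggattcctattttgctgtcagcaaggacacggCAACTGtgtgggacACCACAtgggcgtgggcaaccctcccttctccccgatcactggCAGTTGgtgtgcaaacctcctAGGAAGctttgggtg
Igsf6 is left out of these counts because its window reaches into the gene's annotated span. The ETS word occurred in the windows of the other 5 members, 3 times each in those of Mpo and Ctsg, 2 times in Prtn3, and 1 time each in Elane and Ms4a3. It occurred in 29.5% of 32851 windows of the same length. The MYB word occurred in Elane, Prtn3 and Ctsg and in 29.3% of all windows. Elane and Prtn3 hold the same letters, CAACGG, at 51 to 46 and 56 to 51 bases before the start. The RUNX word was found in the Ctsg window alone among the 5 (14.0% of all windows), and the C/EBP word in none of the 5 (9.6%). No match to different words overlapped another. A match describes the letters and is not a measured binding site.

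Of the 47 arrays, 46 correlated best with another array of their own population. Defining markers fitted the labels MkE, CLP and CD4. Mean log2 levels were 11.18 for Gata1 in MkE, 10.60 for Ebf1 in CLP and 11.00 for Cd3g in CD4. No defining marker is given here for GMP, GM, LMPP, ETP, STHSC, LTHSC or NKmature. The arrays labelled ProB went against their label, with Ebf1 at 5.70 and Pax5 at 3.82, against 10.60 and 5.01 in CLP. These are means of 2 arrays that differed. Without ProB replicate 2 the differences from CLP were -3.05 for Ebf1 and -0.83 for Pax5. The later granule gene S100a8 was at 5.16 on replicate 1 and 10.72 on replicate 2. Of 9 lymphoid markers 2 were higher than in CLP and 4 lower, where 21.9% of all genes were higher and 7.59% lower. Both are called the arrays labelled ProB throughout. Xist and the Y-linked Eif2s3y split the arrays in a way that follows several populations: GM, MkE, CD4 and the arrays labelled ProB carried Xist alone, while GMP, CLP, STHSC and LTHSC carried Eif2s3y alone. LMPP arrays carried Eif2s3y, 3 of the 5 with Xist, and both NKmature arrays carried both. The populations compared share no such class, and class and population cannot be told apart within them, in GMP against MkE, GM against GMP, GM against LMPP, LMPP against MkE, MkE against STHSC, the arrays labelled ProB against CLP, and NKmature against CD4. A fit with the class as a block draws on other populations, and its values are given where they change a result. Genes of later granules (Ngp, Ltf, S100a8 and 10 others), which mature neutrophil precursors make, stood apart on single arrays. Their values are given beside many of the results.

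All 6 genes were highest in GMP and next highest in GM, as the plot of every array shows. Mpo reached a log2 intensity of 13.0002 and 13.13 on the GM arrays and 13.81, 13.82 and 13.83 on the GMP arrays, against at most 11.63 on the other 42 arrays. GM and GMP did not overlap each other or any other population, and the highest value of the whole table was 14.54. These are levels in pooled cells, so fewer cells that make a transcript and less transcript per cell cannot be told apart.

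**Figure D1:**
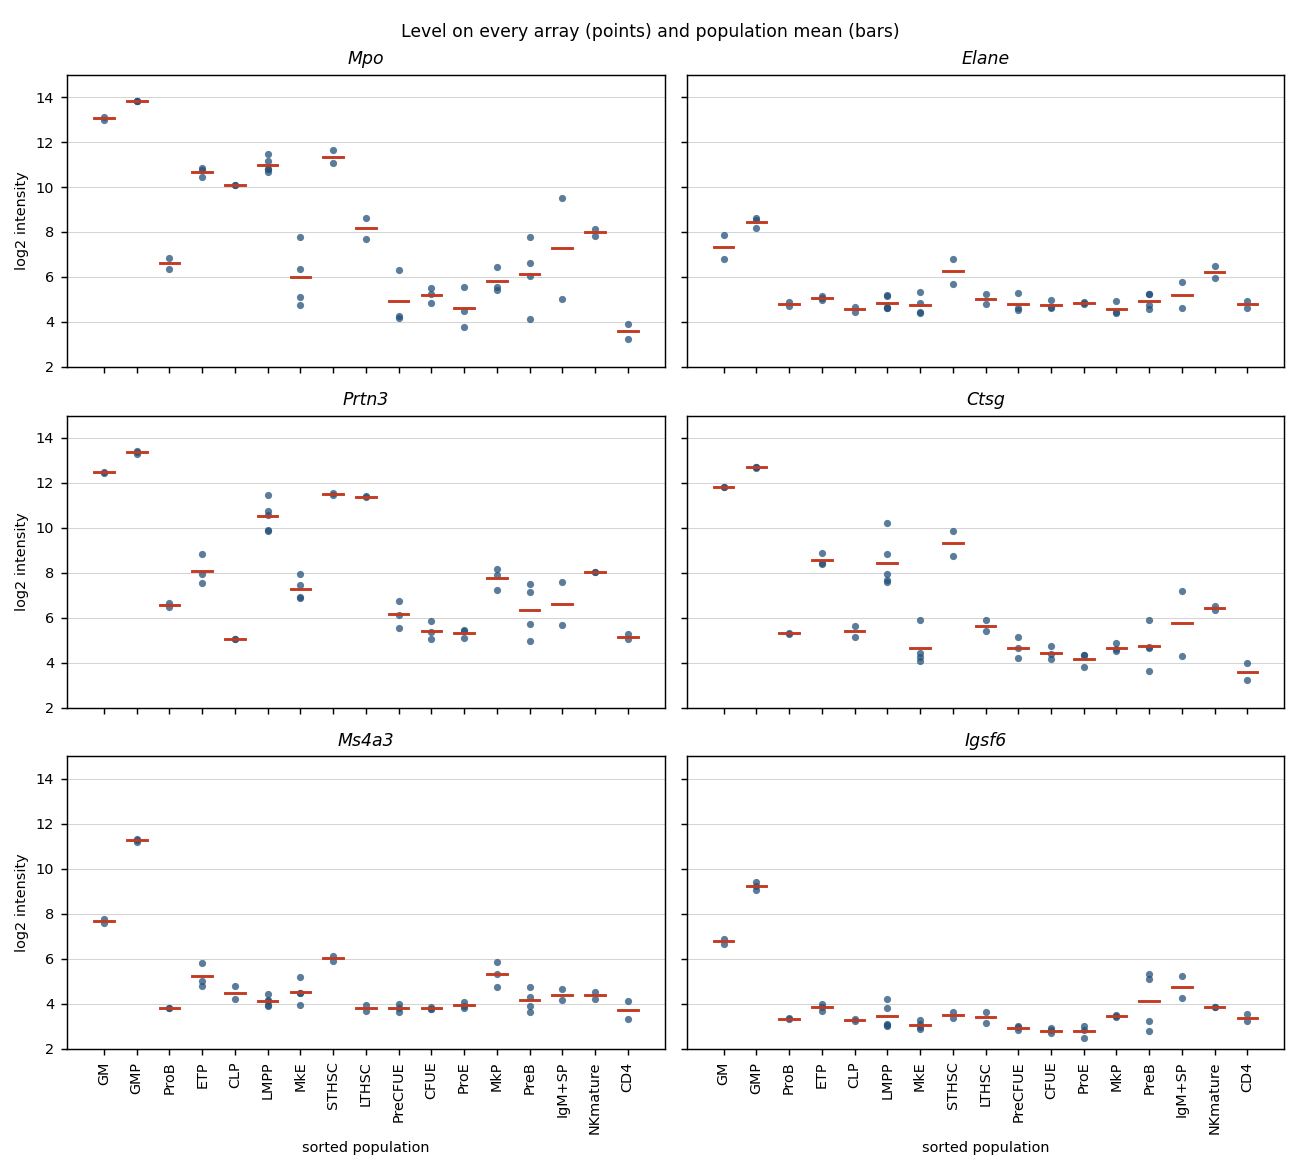
Log2 intensity (vertical axis) of each of the 6 genes in the 17 sorted populations (horizontal axis); points are arrays and bars are population means. Mpo, Prtn3 and Ctsg form a wide staircase with raised levels in several progenitors, while Ms4a3 and Igsf6 stand out in GMP and GM.

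Mpo had a broad second tier. It was at 11.63 and 11.07 in STHSC, at 10.66 to 11.45 (median 10.82) in LMPP, at 10.74, 10.45 and 10.87 in ETP and at 10.10 and 10.08 in CLP. LTHSC lay below all of these, at 8.63 and 7.71. STHSC and LMPP overlapped, as did LMPP and ETP, while both CLP arrays lay below every ETP array. The lowest values were 3.24 and 3.92 in CD4. MkE spread from 4.76 to 7.76 and the erythroid-labelled PreCFUE, CFUE and ProE from 3.77 to 6.29. MkE replicate 1 was the highest MkE array for each of the 6 genes. It was also highest for S100a8, at 9.34 against 6.86 to 7.80 on the other MkE arrays.

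Prtn3 had its own pattern in the stem cells. GM arrays were at 12.48 and 12.46 and GMP arrays at 13.30, 13.43 and 13.38. STHSC arrays followed at 11.47 and 11.57 and LTHSC arrays at 11.38 and 11.40. The LTHSC arrays lay just below the STHSC arrays for Prtn3. LMPP ran from 9.84 to 11.48 (median 10.58) and overlapped LTHSC. ETP was at 8.84, 7.95 and 7.53, MkE at 7.97, 6.91, 7.47 and 6.88, and MkP at 8.20, 7.91 and 7.22. CLP had the lowest mean of all 17 populations, with 5.08 and 5.07, and did not lie clear of CD4 (5.05 and 5.29).

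Ctsg was at 11.82 on both GM arrays and at 12.70, 12.72 and 12.68 in GMP. Its next tier was STHSC (9.87 and 8.77), ETP (8.89, 8.41 and 8.44) and LMPP (7.61 to 10.20, median 7.97), whose arrays overlapped. LTHSC (5.91 and 5.41) and CLP (5.62 and 5.18) were low and also overlapped. The lowest mean was in CD4, at 3.60 ± 0.54 (SD, n = 2).

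Elane gave a much narrower range. GM arrays were at 6.81 and 7.87 and GMP arrays at 8.62, 8.20 and 8.55; the lower GM array lay within the range of STHSC (5.68 and 6.82). NKmature came next, at 5.96 and 6.51. The other 13 populations had means between 4.58 and 5.20, and every neighbouring pair among them overlapped. The range of its population means was 3.88 log2 units, against 10.24 for Mpo, 9.10 for Ctsg, 8.30 for Prtn3, 7.53 for Ms4a3 and 6.45 for Igsf6; each is 1 probe set, whose range also depends on how well it responds.

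Ms4a3 had the widest gap between GM and GMP. GM arrays were at 7.59 and 7.75, GMP arrays at 11.21, 11.32 and 11.27, and STHSC arrays at 6.15 and 5.91. MkP (4.75 to 5.86) and ETP (4.79 to 5.83) lay below STHSC. LMPP stayed at 3.89 to 4.46, near the median of all values on the array (3.889) and overlapping the lowest populations.

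Igsf6 was at 6.90 and 6.68 in GM and at 9.42, 9.24 and 9.05 in GMP. No array outside these populations passed 5.32. The highest values outside were on PreB replicate 3 (5.32), IgM+SP replicate 1 (5.26) and PreB replicate 4 (5.10), and the other 2 PreB arrays were at 3.23 and 2.81. STHSC (3.65 and 3.35) and LTHSC (3.63 and 3.17) overlapped at a low level.

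GMP arrays were compared with the LMPP arrays and with the MkE arrays. Against LMPP all 6 genes rose, where 10.6% of the 13949 genes tested rose at an adjusted p under 0.05 and at least 2-fold (limma with Benjamini-Hochberg adjustment over all genes tested). Ms4a3 rose by 7.15 ± 0.25 on the log2 scale (SE), with an adjusted p of 4.62e-23, and Igsf6 by 5.79 ± 0.34. Both lay near or below 3.889 on LMPP arrays, and the table holds no measure of background, so no fold is given for them. Ctsg rose by 4.24 ± 0.49 (18.9-fold) and Elane by 3.60 ± 0.26 (12.2-fold). The LMPP mean of Elane (4.85) lay among its low, overlapping populations, so folds of Elane from such a level are uncertain. Prtn3 rose by 2.86 ± 0.41 and Mpo by 2.84 ± 0.66 (adjusted p = 0.000737). No GMP array overlapped an LMPP array for any of the 6. LMPP replicates 4 and 5 carried later granule genes (S100a8 at 9.85 and 9.79, against 3.44 to 3.66 on the other 3 LMPP arrays), and without them the 6 differences ran from 2.43 for Prtn3 to 7.17 for Ms4a3, with all 6 still called.

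**Figure D2:**
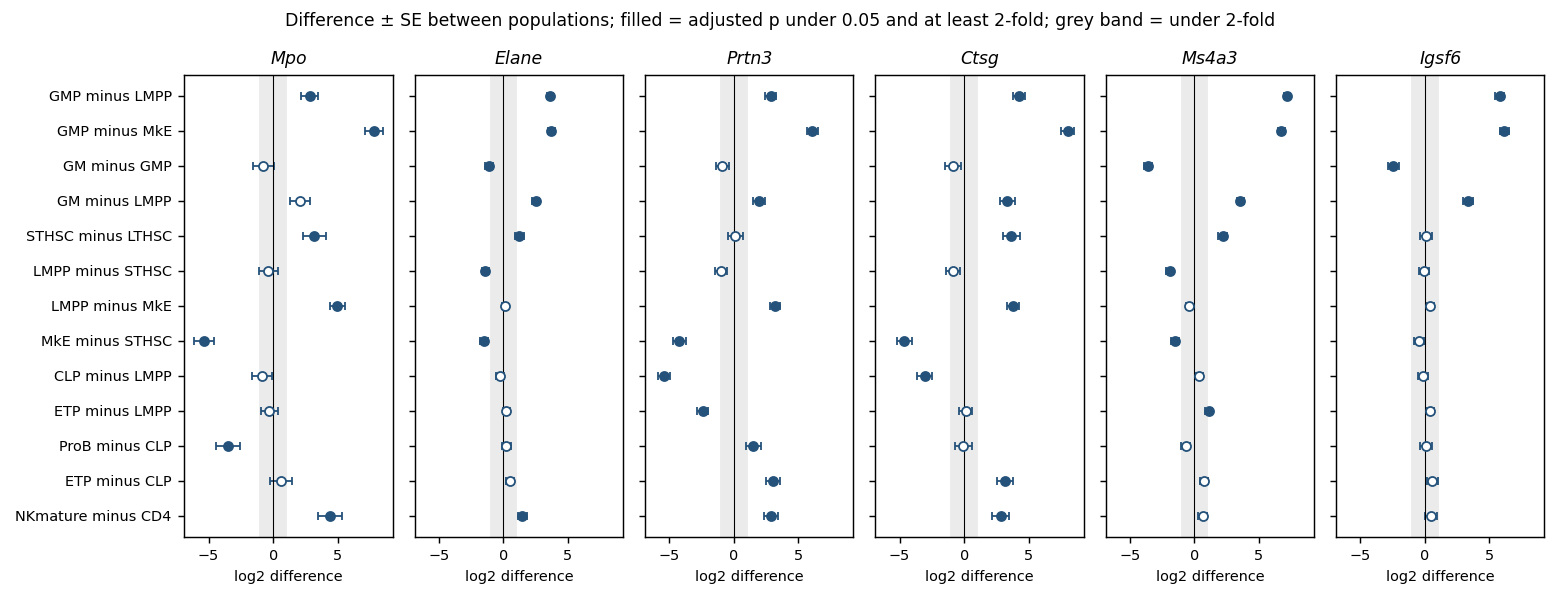
Log2 difference with its standard error (horizontal axis) for each of the 6 genes in 13 comparisons of populations (vertical axis), the population named before "minus" being compared with the one after it; filled points passed the test. All 6 genes are filled in GMP minus LMPP and GMP minus MkE, while the stem cell and lymphoid comparisons fill different subsets.

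Lists of genes that serve the granules were counted in GMP against LMPP. Of 7 packing and processing genes, 5 rose and none fell, with a median difference of 1.33 against -0.03 over all genes tested. They were Cst7 (cystatin F, an inhibitor of cathepsin C; 1.69 ± 0.25), Vamp7 (a vesicle fusion protein; 1.56 ± 0.22), Ctsc (cathepsin C, which activates the serine proteases; 1.49 ± 0.22) and Rab27a (a small GTPase of granule release; 1.33 ± 0.22). The fifth, Lyst (1.17 ± 0.35), was named after its value was seen and was not called without LMPP replicate 1 (0.98) or 2 (0.97). Of 4 protease inhibitors 3 rose: Slpi (2.01 ± 0.21), Serpinb1a (1.09 ± 0.24), both inhibitors of neutrophil proteases, and Cstb (1.05 ± 0.19), the last not called without LMPP replicate 1 (0.94) or 2 (0.92). Of 10 lysosomal enzymes 3 rose and none fell, Neu1 (1.85 ± 0.28), Hexa (1.18 ± 0.15) and Gusb (1.03 ± 0.30). Gusb was not called without GMP replicate 1 (0.96) or LMPP replicate 3 (0.87).

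The haem and oxidase list gave 2 of 7 higher in GMP than in LMPP. Cybb, the catalytic subunit of the phagocyte oxidase that supplies peroxide to myeloperoxidase, rose by 4.64 ± 0.45, and Alas1, the first enzyme of haem synthesis, rose by 3.50 ± 0.34. Of 9 transcription factors listed as candidate regulators of primary granule genes, 3 rose and 2 fell, where 6.24% of all genes fell. Their action on these genes was not tested. Cebpa rose by 1.55 ± 0.18, Gfi1 by 1.36 ± 0.32 and Irf8 by 1.36 ± 0.31. Tcf4 fell by 2.99 ± 0.21 and Spi1, which encodes PU.1 and was named after its value was seen, fell by 1.04 ± 0.30. Spi1 was not called without GMP replicate 3 (-0.84), LMPP replicate 1 (-0.89) or LMPP replicate 2 (-0.88).

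Markers of other myeloid cells were counted in the same comparison. Of 3 eosinophil markers none was called, with a median difference of 0.33. Of 10 monocyte markers 6 rose, led by F13a1 (5.64 ± 0.44) and Fcgr3 (5.19 ± 0.31), and the list's summed intensity was 6630 to 7890 on GMP arrays and 1960 to 3180 on LMPP arrays. Of 6 mast cell and basophil markers 5 rose, led by Cpa3 (5.35 ± 0.26) and Ms4a2 (4.59 ± 0.26), with sums of 1080 to 1120 in GMP and 133 to 198 in LMPP. Of 13 later granule genes 4 rose, among them Hp (5.94 ± 0.34) and S100a8 (4.69 ± 1.43), and 1, Padi4, fell (-2.01 ± 0.24). Another of the 4, Chil3 (3.48 ± 1.38), was not called when any 1 of the 3 GMP arrays or of LMPP replicates 1, 2 and 3 was left out. The part of these cells in the 6 genes' differences was not tested. Of 9 other MS4A genes 6 rose, with Ms4a6c at 4.00 ± 0.45, Ms4a4b at 2.62 ± 0.50 and Ms4a6d at 2.42 ± 0.19 beside Ms4a2, which both lists hold.

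Against MkE all 6 genes again rose in GMP, where 8.77% of all genes did. Ctsg rose by 8.03 ± 0.51 and Mpo by 7.83 ± 0.69. Ms4a3 rose by 6.74 ± 0.26, Igsf6 by 6.17 ± 0.35, Prtn3 by 6.06 ± 0.43 and Elane by 3.70 ± 0.27, and no arrays overlapped. With the sex-linked class as a block all 6 stayed called, at 6.85 for Ctsg, 5.70 for Mpo, 5.97 for Ms4a3, 3.98 for Igsf6, 4.08 for Prtn3 and 3.62 for Elane. Later granule genes summed to 4210 to 5010 on the GMP arrays and 627 to 2340 on the MkE arrays, and their part was not tested. This comparison shares the GMP arrays with the one against LMPP, so the results are not independent.

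GM arrays were compared with GMP and with LMPP arrays. Against GMP 3 of the 6 genes fell, where 2.95% of all genes did. Ms4a3 fell by 3.59 ± 0.31 (12.1-fold lower, adjusted p = 5.2e-11, limma), Igsf6 by 2.45 ± 0.42 (5.45-fold) and Elane by 1.12 ± 0.33. The Elane call was lost without GM replicate 1 (-0.59, adjusted p = 0.532 by limma) and without GMP replicate 1 or 3. Mpo, Prtn3 and Ctsg differed by -0.76 ± 0.83, -0.90 ± 0.52 and -0.88 ± 0.61; every GM array lay below every GMP array, but none passed the test, whose spread is pooled over all 17 populations. Of 9 lymphoid markers 2 were higher in GM, where 5% of all genes were. They were Dntt (7.11 ± 0.46), the template-free polymerase of lymphocyte receptor genes, and Il7r (2.98 ± 0.70), the interleukin-7 receptor. Flt3, a receptor of early progenitors, was 3.69 ± 0.37 higher. Of 5 erythroid markers 2 were higher, Car1 (2.05 ± 0.56) and Klf1 (1.71 ± 0.48), neither of them called without GM replicate 1 or 2. Of 10 monocyte markers 3 fell, of 6 mast cell and basophil markers 3 fell, and of 3 eosinophil markers 1 fell. Later granule genes summed to 1010 to 2530 on the GM arrays and 4210 to 5010 on the GMP arrays. GM replicate 2 was the higher GM array for Elane (7.87 against 6.81) and for S100a8 (8.93 against 7.25). The part of all these cells, and of cells with later granule genes, was not tested. With the sex-linked class as a block, Ms4a3 stayed called (-2.82), the Igsf6 (-0.26) and Elane (-1.03) calls were lost, and Mpo (1.37), Prtn3 (1.08) and Ctsg (0.29) turned direction without being called.

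Against LMPP 5 of the 6 genes rose in GM, where 3.49% of all genes did. Ms4a3 rose by 3.56 ± 0.29, Ctsg by 3.36 ± 0.56, Igsf6 by 3.34 ± 0.39, Elane by 2.49 ± 0.30 and Prtn3 by 1.96 ± 0.47. Prtn3 was not called without GM replicate 1 (1.95, adjusted p = 0.133 by limma) or 2 (1.97, adjusted p = 0.101 by limma). Mpo differed by 2.09 ± 0.76 with an adjusted p of 0.07, and no arrays overlapped; it was called when arrays were centred on their medians (2.19), in a fit of the GM and LMPP arrays alone (2.09) and with the sex-linked class as a block (3.99). Of the other markers, 5 of 10 monocyte markers rose and 1 fell, 2 of 6 mast cell and basophil markers rose, and 3 of 5 erythroid markers rose (median 1.45, against 0.08 over all genes). The monocyte markers Fcgr3, Csf1r and Klf4, the 1 that fell, were not called without GM replicate 1 or 2. Cx3cr1 was not called without GM replicate 2 (0.95), nor Mcpt8 without GM replicate 1 (1.71). The erythroid list summed to 654 to 701 in GM and 131 to 185 in LMPP, and later granule genes to 1010 to 2530 and 231 to 3470. Their part was not tested.

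The stem cell populations split the members. In STHSC against LTHSC 4 of the 6 rose, where 2.06% of all genes did. Ctsg rose by 3.66 ± 0.66 (12.6-fold, adjusted p = 0.000219 by limma), Mpo by 3.18 ± 0.90 (9.09-fold), Ms4a3 by 2.20 ± 0.34 and Elane by 1.22 ± 0.36 (2.33-fold). Prtn3 differed by 0.13 ± 0.57 and Igsf6 by 0.11 ± 0.46. The Mpo call was lost without LTHSC replicate 2 (2.72) or STHSC replicate 1 (2.90), and the Elane call without LTHSC replicate 1 (0.99) or STHSC replicate 2 (0.65). In a fit of these 4 arrays alone none of the 6 passed, with an adjusted p of 0.0597 for Mpo, Ctsg and Ms4a3 (limma). In the main fit the median of all genes was -0.13, and centring on array medians moved it to -0.17.

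The lists of serving genes were counted in STHSC against LTHSC, where 2.06% of all genes rose and 4.75% fell. Each population has 2 arrays. Of 7 haem and oxidase genes 1 rose, of 7 myeloid growth factor receptors 2 rose, and none of either list fell. Of the 7 packing genes 1 rose, Cst7 by 2.36 ± 0.34, and of 4 protease inhibitors Serpinb1a rose by 1.98 ± 0.33 while Serpinb6a, another intracellular serpin, fell by 2.12 ± 0.28. None of the 9 transcription factors, the 10 lysosomal enzymes or the 13 later granule genes was called in either direction by limma in this comparison, where 287 genes were called higher and 663 lower. For lists of this size, no call is close to the share over all genes. Later granule genes summed to 230 to 255 in STHSC and 208 to 256 in LTHSC, against 4210 to 5010 in GMP, and 5 of the 13 had a mean above the filter in each of STHSC and LTHSC. Of 6 mast cell and basophil markers 3 rose, Cpa3 by 1.67 ± 0.35, Ms4a2 by 1.15 ± 0.35 and Hdc by 1.07 ± 0.29, and the part of those cells was not tested. Ms4a2 was not called without LTHSC replicate 2 (0.96) or STHSC replicate 2 (0.40), nor Hdc without STHSC replicate 1 (0.87) or either LTHSC array (1.05 and 1.09). Of 5 erythroid markers 2 fell, Car1 by 5.33 ± 0.61 and Klf1 by 1.59 ± 0.52, with list sums of 296 to 717 in STHSC and 792 to 5260 in LTHSC. Klf1 was not called without LTHSC replicate 2 (-0.11) or STHSC replicate 1 (-0.68), and LTHSC replicate 2 had the highest mean of the list among the 4 arrays. The part of erythroid cells was not tested.

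In LMPP against STHSC 2 of the 6 fell, where 1.5% of all genes did. Ms4a3 fell by 1.92 ± 0.29 and Elane by 1.40 ± 0.30, and neither overlapped. Elane was not called without STHSC replicate 2 (-0.83). Mpo (-0.38 ± 0.76), Prtn3 (-1.01 ± 0.47), Ctsg (-0.85 ± 0.56) and Igsf6 (-0.06 ± 0.39) overlapped between the populations and were not called. 

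MkE separated from both. Against STHSC 5 of the 6 genes fell in MkE, where 6.01% of all genes did: Mpo by 5.36 ± 0.78, Ctsg by 4.64 ± 0.58, Prtn3 by 4.21 ± 0.49, Ms4a3 by 1.50 ± 0.30 and Elane by 1.50 ± 0.31. Igsf6 differed by -0.44 ± 0.40. Later granule genes summed to 627 to 2340 on the MkE arrays, 230 to 255 on the STHSC arrays and 231 to 3470 on the LMPP arrays. Their part was not tested. With the sex-linked class as a block Mpo (-3.23), Ctsg (-3.47), Prtn3 (-2.23) and Elane (-1.41) stayed called, Ms4a3 was not called (-0.73, adjusted p = 0.179 by limma), and Igsf6 was called higher (1.75). Elane was not called without STHSC replicate 2 (-0.93, adjusted p = 0.0656 by limma). In LMPP against MkE 3 of the 6 rose, where 5.99% of all genes did: Mpo by 4.98 ± 0.61, Ctsg by 3.79 ± 0.45 and Prtn3 by 3.20 ± 0.38. Elane (0.10 ± 0.24), Ms4a3 (-0.41 ± 0.23) and Igsf6 (0.38 ± 0.31) overlapped. With the block Mpo (3.08), Ctsg (3.40) and Prtn3 (1.85) stayed called, and Ms4a3 (-1.11) and Igsf6 (-2.01) were called lower. Of the 9 transcription factors 6 rose in LMPP against MkE, with Irf8 at 4.90 ± 0.28 and Gfi1 at 4.70 ± 0.29, and 1 fell, Myb, named after its value was seen, by 1.13 ± 0.16.

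Among the lymphoid-labelled populations, the members parted from each other. In CLP against LMPP 2 of the 6 fell, where 18.1% of all genes did. Prtn3 fell by 5.43 ± 0.47 (43.3-fold lower, adjusted p = 3.6e-11 by limma), the largest fall of any gene tested, and Ctsg by 3.06 ± 0.56 (8.37-fold). The CLP mean of Prtn3 (5.08) was its lowest population mean. With no measure of background, folds of Prtn3 against CLP are uncertain. Mpo differed by -0.89 ± 0.76 (adjusted p = 0.365 by limma), Elane by -0.28 ± 0.30, Ms4a3 by 0.38 ± 0.29 and Igsf6 by -0.16 ± 0.39. Both CLP arrays lay below every LMPP array for Mpo, while Elane, Ms4a3 and Igsf6 overlapped. Of the 9 transcription factors 3 fell, Gfi1 by 1.94 ± 0.37, Cebpb by 1.27 ± 0.43 and Cebpa by 1.23 ± 0.21. Of 7 packing genes 3 fell, Vamp7 by 1.27 ± 0.25, Rab27a by 1.14 ± 0.26 and Srgn, the proteoglycan core that binds granule proteases, by 1.05 ± 0.13. Cebpb was not called without CLP replicate 1 (-1.37) or 2 (-1.17), Rab27a without CLP replicate 2 (-0.97), and Srgn without CLP replicate 2 or LMPP replicate 1 (-0.99).

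In ETP against LMPP 1 member rose and 1 fell. Ms4a3 rose by 1.11 ± 0.25, where 7.12% of all genes rose, and was not called without ETP replicate 1 (0.80). Prtn3 fell by 2.40 ± 0.41, where 4.81% of all genes fell. Mpo (-0.29 ± 0.66), Ctsg (0.12 ± 0.49), Elane (0.21 ± 0.26) and Igsf6 (0.41 ± 0.34) overlapped. Later granule genes summed to 174 to 214 on the ETP arrays and 231 to 3470 on the LMPP arrays. Of 6 mast cell and basophil markers 2 rose and none fell, with sums of 1020 to 1380 in ETP and 133 to 198 in LMPP. The part of those cells was not tested.

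ETP and CLP were compared after their values had been seen. Prtn3 was 3.03 ± 0.52 higher (8.17-fold) and Ctsg 3.18 ± 0.61 higher (9.07-fold) in ETP than in CLP, where 22% of all genes were called higher. Mpo differed by 0.59 ± 0.83, and Ms4a3 by 0.72 ± 0.31 with an adjusted p of 0.0536 by limma. Of 7 packing genes 3 rose and none fell: Vamp7 (2.41 ± 0.27), Ctsc (1.62 ± 0.27) and Srgn (1.22 ± 0.15). Of 4 protease inhibitors Cstb (2.40 ± 0.24) and Serpinb1a (2.33 ± 0.30) rose and 1, Slpi, fell, where 7.16% of all genes fell. Slpi averaged 4.61 in ETP and 5.65 in CLP, and was not called without ETP replicate 2 or 3 (-0.99 each). Of 10 lysosomal enzymes 2 rose and 1 fell. Gfi1 rose by 1.81 ± 0.40 while Tcf4 fell by 1.91 ± 0.26 and Irf8 by 1.86 ± 0.38. Of 6 mast cell and basophil markers 2 rose and 1 fell. Cpa3, a mast cell protease also made by early progenitors, rose by 6.51 ± 0.32. The list summed to 1020 to 1380 in ETP and 163 to 235 in CLP, and the part of those cells was not tested.

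On the arrays labelled ProB, Mpo was at 6.34 and 6.86, against 10.10 and 10.08 in CLP. It fell by 3.49 ± 0.90 (11.2-fold lower), where 7.59% of all genes fell, but with the sex-linked class as a block the difference was -1.36 and was not called (adjusted p = 0.415 by limma). Under that block Igsf6 was called higher (2.26). Prtn3 rose by 1.50 ± 0.57 with an adjusted p of 0.03 by limma, where 21.9% of all genes rose, and this call was lost when any 1 of the 4 arrays was left out. With the block Prtn3 was at 3.48 and called. The summed later granule intensity was 265 on the array with Mpo at 6.34 and 8440 on the array with Mpo at 6.86, against 276 to 362 in CLP. Monocyte markers summed to 10700 to 12000 on the arrays labelled ProB and 2060 to 2490 in CLP. Of 10 such markers 4 were higher and none lower. The part of both lists in these values was not tested.

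Later granule genes reached their highest levels outside the progenitors. The list summed to 13200 to 14100 in NKmature, 9220 to 15300 in IgM+SP and 160 to 13900 in PreB, against 4210 to 5010 in GMP. The primary granule genes differed within these populations. IgM+SP replicate 1 had Mpo at 9.52, Prtn3 at 7.59, Ctsg at 7.19 and Elane at 5.78, against 5.04, 5.70, 4.33 and 4.62 on replicate 2, while S100a8 was at 12.14 and 11.15. PreB arrays had Mpo at 4.12, 6.03, 7.79 and 6.61 and S100a8 at 3.42, 6.58, 11.04 and 11.89. The 2 PreB arrays highest in S100a8 were also highest of the 4 in Mpo, Prtn3, Ctsg and Igsf6, but not in Elane, whose values were 4.59, 5.23, 5.24 and 4.75.

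**Figure D3:**
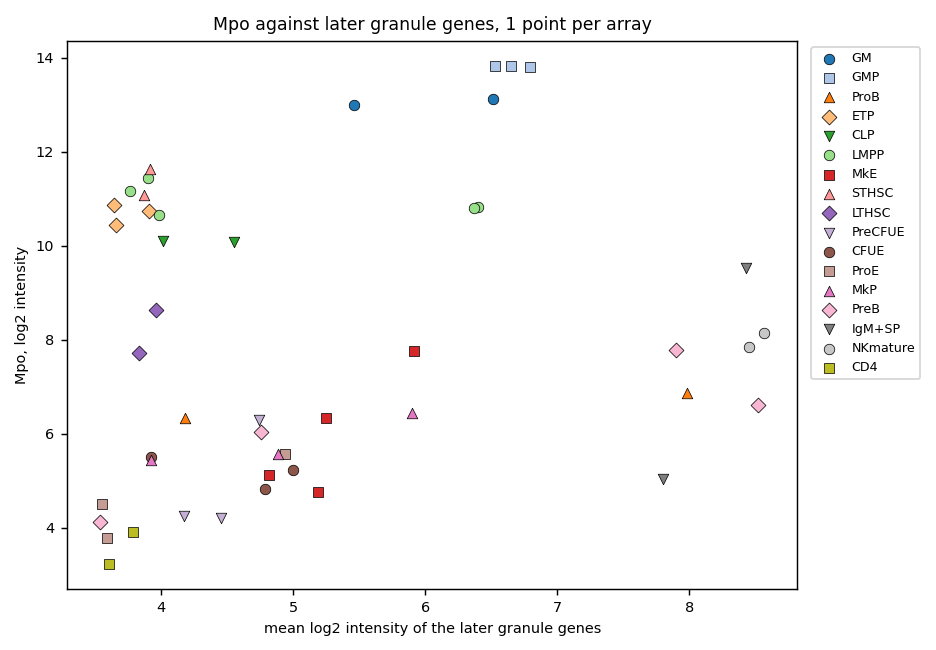
Log2 intensity of Mpo (vertical axis) against the mean log2 intensity of 13 later granule genes (horizontal axis), 1 point per array, marked by population. STHSC, ETP and the first 3 LMPP arrays lie at the upper left above LTHSC, GMP and GM at the top with means of 5.46 to 6.79, and NKmature, IgM+SP and 2 PreB arrays at the right with lower Mpo.

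NKmature and CD4 arrays, compared after their values had been seen, differed in 4 of the 6 genes, all higher in NKmature, where 11.8% of all genes were higher. Mpo was at 7.84 and 8.14 in NKmature and at 3.24 and 3.92 in CD4, a difference of 4.41 ± 0.90. The mean in CD4 lay below 3.889, so no fold is given. Prtn3 rose by 2.87 ± 0.57, Ctsg by 2.82 ± 0.66 and Elane by 1.45 ± 0.36. Ms4a3 (0.65 ± 0.34) and Igsf6 (0.49 ± 0.46) did not pass, and no arrays overlapped for any of the 6. All 13 later granule genes rose with them, S100a8 by 7.71 ± 1.96 and Ngp by 6.80 ± 1.83, and their part in the Mpo difference was not tested. Of the 13, Mmp8 was not called when any 1 of the 4 arrays was left out (1.91 to 2.03). Padi4 was not called without CD4 replicate 2 (1.03) or NKmature replicate 2 (1.02), nor Mmp9 without NKmature replicate 2 (1.82). Elane was not called without NKmature replicate 2 (1.18, adjusted p = 0.0541 by limma). With the sex-linked class as a block, neither Mpo (2.66) nor Elane (1.47) was called, Prtn3 (1.93) and Ctsg (2.96) were, and Igsf6 was called lower (-2.05).

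Across the 17 population means the 6 genes correlated with each other at Pearson's r of 0.67 to 0.94, a description over populations that share arrays and normalization. The highest were Mpo with Ctsg (0.94) and Ms4a3 with Igsf6 (0.93), and the lowest were Prtn3 with Igsf6 (0.67) and Mpo with Igsf6 (0.68). Of 3680 candidate genes whose population means spanned at least 3 log2 units, Hk3, a hexokinase of myeloid cells, was most like the mean of Mpo, Elane, Prtn3 and Ctsg (r = 0.95 over 17 populations). It was followed by Tmem141 (0.94), Ccl9 (a chemokine, 0.92), Dhdh (0.92), Fbp1 (a gluconeogenic phosphatase, 0.92), Fgd4 (0.90), Slc16a7 (0.88), Mcpt8 (a basophil protease, 0.87), Acot1 (0.87) and Fut4 (a fucosyltransferase, 0.87). Ccl9, unlike the 6 genes, had a higher mean in GM (11.78) than in GMP (10.40).

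**Figure D4:**
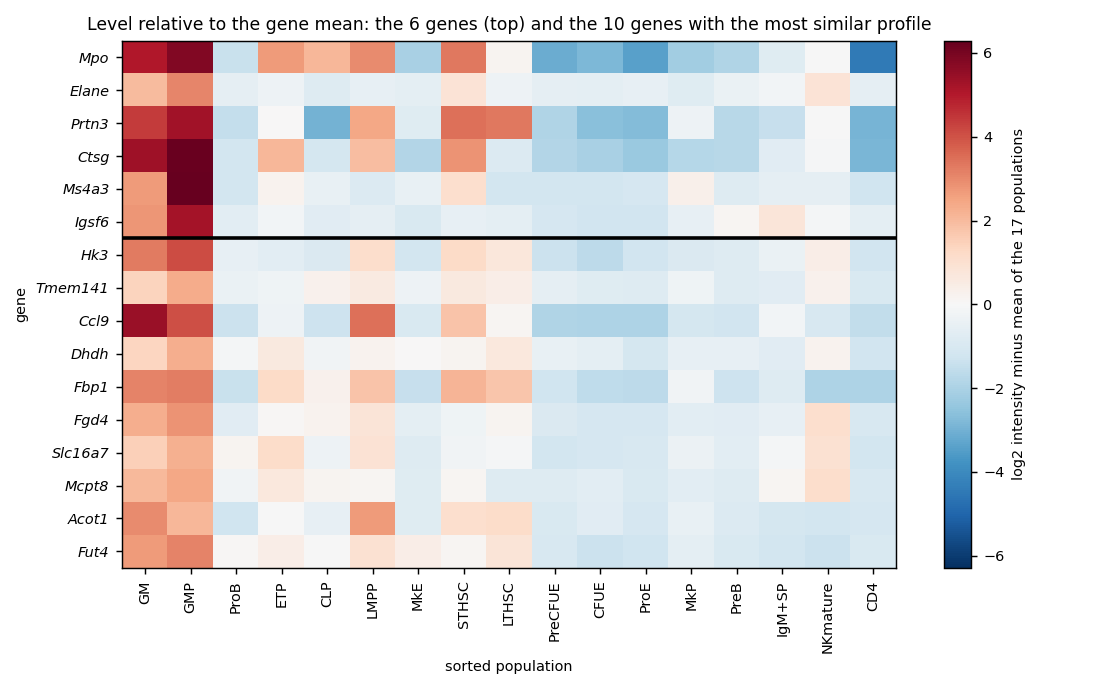
Population mean of each gene minus that gene's mean over the 17 populations (colour, log2 units), for the 6 genes above the line and, below it, the 10 genes with the most similar profile; columns are populations. GM and GMP are raised in every gene shown, and Mpo, Prtn3 and Ctsg are the members also raised in STHSC and LMPP.

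Gene by gene, Mpo was most like Fbp1 (0.90), Elane like Dram1 (0.92), Prtn3 like Tfec (0.92), Ctsg like Hk3 (0.92), Ms4a3 like Met (0.93) and Igsf6 like Anxa3 (0.96). Tfec, a transcription factor gene of macrophages picked by this correlation, averaged 6.37 in STHSC and 7.03 in LTHSC, and 3.15 in CLP. Unlike Prtn3, it was lower in GM (5.74) than in STHSC and LTHSC. Met, which encodes a growth factor receptor, averaged 6.72 in GM and 8.90 in GMP, with 4.01 or less in ETP, CLP, LMPP, MkE, STHSC and LTHSC.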

How the data were processed

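Log2 levels of Mpo, Elane, Prtn3, Ctsg, Ms4a3 and Igsf6 came from the deposited table of linear intensity, which per the series design text the authors obtained by RMA. The versions used and any later scaling are not stated there. Array medians ran from 13.8 to 16.9, and 45101 probe sets were read, 34958 of them annotated to 1 symbol. From the deposited intensities log2 was taken with no pseudocount, the brightest probe set stood for each gene, and genes with no population mean above 3.889 (the median of all log2 values) were left out. Groups are the labelled populations. limma (3.58.1, R 4.3.3) fitted 17 means to 47 arrays with 30 residual degrees of freedom. A call needs a Benjamini-Hochberg adjusted p under 0.05 and a 2-fold difference. Nothing names separate animals, so the spread behind each p-value is that of these arrays and may be technical. The number of arrays limits precision.

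The members, the gene lists and the comparisons were chosen with earlier results of these data known. Of 121 listed genes, 106 were measured and 99 tested. Named genes are all members, up to 4 called genes per list with the largest differences, and the genes with the most similar profiles. Alternatives covered the probe set rule, filter, floor, scaling, replicate number, sex-linked class, the arrays fitted and each array left out. Arrays with the same replicate number were not treated as paired. Where 3 or more numbers are shared, 0 of 13 correlations of their deviations passed 0.1 (-0.31 to 0.08). Where 2 are shared, 6 of 18 did (-0.13 to 0.38), the highest in STHSC against LTHSC. Where both populations have only 2 arrays, as there, the 2 correlations are equal by construction, so the 18 are not all separate values. Promoter windows were read from RefSeq sequences of GRCm38.p6. The fit was tested on simulated data.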

Additional observations from a re-analysis of the deposited data

How the results depend on the processing

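All 6 genes stayed called higher in GMP against LMPP and against MkE under every alternative run, leaving out LMPP replicates 4 and 5 included. With the sex-linked class as a block, which can be estimated only from the few populations that hold more than 1 class, the members called lower were 1 (3 in the main fit) in GM against GMP and 2 (0) in LMPP against MkE. Members called higher were 1 (0) in MkE against STHSC. For the arrays labelled ProB against CLP, 2 were higher (1) and 0 lower (1). For NKmature against CD4, 2 were higher (4) and 1 lower (0). Under that block Igsf6 turned direction and was called in LMPP against MkE (-2.01), MkE against STHSC (1.75) and NKmature against CD4 (-2.05). Members not called in either fit also turned: Mpo (1.37), Prtn3 (1.08) and Ctsg (0.29) in GM against GMP, Ms4a3 (0.11) and Ctsg (1.1) for the arrays labelled ProB against CLP, and Igsf6 (0.04) in CLP against LMPP. The cause was not tested. With only the arrays of the 2 populations fitted, 0 members were called higher in STHSC against LTHSC (4 in the main fit) and 1 lower in LMPP against STHSC (2), where few residual degrees of freedom remain. With each array left out in turn, the members called were 0 to 0 higher for the arrays labelled ProB against CLP (1 with all arrays), 0 to 1 higher in ETP against LMPP, 1 to 2 lower in LMPP against STHSC, 3 to 3 higher in STHSC against LTHSC (4 with all arrays), 2 to 3 lower in GM against GMP, 4 to 5 higher in GM against LMPP, 4 to 5 lower in MkE against STHSC, 2 to 3 higher in ETP against CLP and 3 to 4 higher in NKmature against CD4. A population left with 1 array was assumed to vary like the others. The replicate block changed no member count, and it moved genes called higher in LMPP against STHSC to 305, against 547 without it. Counts over all genes moved more: averaging all probe sets gave 937 higher in GMP against LMPP (1480 in the main fit), 259 higher in GM against LMPP (487), 186 higher in STHSC against LTHSC (287), 1674 lower in CLP against LMPP (2521), 577 higher in ETP against LMPP (993) and 572 lower for the arrays labelled ProB against CLP (1059). The sex-linked block gave 2399 higher in GMP against MkE (1223), 1425 lower in GM against GMP (411), 1698 higher in GM against LMPP (487), 2428 higher in LMPP against MkE (835), 2468 lower in MkE against STHSC (838) and 2638 higher in NKmature against CD4 (1647). Repeated quantile normalization gave 1138 higher in CLP against LMPP (438), 1914 higher in ETP against CLP (3075) and 1992 lower for the arrays labelled ProB against CLP (1059). The fit of STHSC and LTHSC alone gave 1 higher (287) and 2 lower (663), and that of LMPP and STHSC alone gave 74 lower (209). Without LMPP replicates 4 and 5, 789 genes were higher in GM against LMPP (487) and 129 lower in LMPP against STHSC (209). Quantile normalization shifted the 102 population levels of the 6 genes by -0.23 to 0.51. Dim probe sets limit Igsf6, Ms4a3 and Elane outside GMP and GM, since levels near 3.889 have little room below them.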
